A study of Mus musculus with 6 samples.

Results

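The genes described here are 10 inhibitory surface molecules of T cells: the receptors Ctla4, Pdcd1, Tigit, Lag3, Havcr2, Btla and Cd160, the ligand Cd200, and the ectoenzymes Entpd1 and Nt5e. They were taken from a fixed list of names and matched by Ensembl identifier, and all 10 were found among the 49315 genes in the count tables. The rule itself reads no measured value, but the names were chosen with earlier results of these data known. Counts of members beside the share of all genes are therefore descriptions. All 10 also passed the filter on low counts, which kept 12838 genes with at least 2 CPM (counts scaled to a common library size) and at least 10 counts in at least 1 library. A label of receptor does not hold for every member, because Cd200 is a ligand and Entpd1 and Nt5e are enzymes.

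Coinhibitory receptors are induced on T cells that meet antigen, and they restrain signalling from the T-cell receptor and from CD28. Several of them are coexpressed on cells that see antigen repeatedly, on regulatory T cells and on interleukin-10 producing cells, and Btla is an exception in being carried by resting naive cells. CD39, the product of Entpd1, cuts extracellular ATP and ADP to AMP, and CD73, the product of Nt5e, cuts AMP to adenosine, which slows T cells through the adenosine receptor encoded by Adora2a. In mouse T cells CD39 is best known from Foxp3+ regulatory cells and CD73 from regulatory, anergic and memory cells.

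The cells were CD4 T cells of C57BL/6 background with the CBir1 T-cell receptor transgene, whose receptor recognises a flagellin of gut bacteria. In 5 of the 6 libraries, CD45.1 donor cells lacking CD44 had been transferred to CD45.2 mice on day 0 and primed with 50 ug flagellin plus 1 ug CT on days 1 and 7. Of these, 4 libraries came from mice given 3 ug MEP1 intravenously on days 28 and 35 with 5 days of injections after it: metformin with rapamycin (MEP1+Metformin+Rapamycin, called the combination below), rapamycin (MEP1+Rapamycin), metformin (MEP1+Metformin) or the vehicle alone (MEP1+CMC). All 3 inhibitor preparations contained CMC. No treatment mice got neither MEP1 nor inhibitor in that window. By protocol every recipient then met MEP1 again on day 56, and on day 63 the donor cells that were left were sorted from the spleen. The sixth library, the naive CD4 control, was spleen CBir1 CD4 cells labelled as naive, and no treatment of its own is given. For No treatment, the header of the counts names the cells as not challenged, against the sample's label, which is followed here. If the column name is right, every ratio between that library and another transferred one also holds the day 56 challenge.

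Each condition had 1 library, so no value has a replicate error. Differences between a pair of libraries are given as log2 ratios of CPM after library sizes were adjusted with TMM, edgeR's trimmed-mean method, with a 95% interval that covers counting error only. A gene passed the size rule when its ratio was at least 2-fold and that interval did not include equality. Total counts ran from 26139000 in the naive library to 60622310 in No treatment. The set of 8 CD4 T-cell markers summed to between 5402 and 7630 TMM CPM with none at 0. Markers of macrophages, monocytes and dendritic cells (11 genes, with Lyz2 and Csf1r) summed to 342 in the combination, 278 with rapamycin, 320 with metformin, 533 in MEP1+CMC, 2641 in No treatment and 40.4 in the naive library, where Marco and Cd14 were at 0. The libraries also differed in sex-linked transcripts. Xist stood at 0.218 to 0.486 TMM CPM in the 3 inhibitor libraries and at 262 in MEP1+CMC, while Y-linked Ddx3y stood at 62.0 to 95.8 in the inhibitor libraries and at 0.307 in MEP1+CMC. In No treatment both were present, Xist at 24.2 and Ddx3y at 35.9, and in the naive library Xist was at 43.1 and Ddx3y at 0.377. An inhibitor ratio over MEP1+CMC therefore also compares libraries of unlike sex-linked content, and these cannot be told apart. Ratios among the 3 inhibitor libraries do not carry that difference. In bulk RNA, fewer cells expressing a gene and less of its RNA per cell cannot be told apart.

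Promoter sequence is shown for 4 members whose RefSeq start lies within 4 bases of the start in the count tables, chosen because they span the range of results: Havcr2 and Tigit, which varied most between the transferred libraries, Pdcd1, which varied moderately, and Cd200, which varied least. Each is the 250 bases before the RefSeq start on GRCm38.p6, written 5′ to 3′ in the direction of the gene. Capitals mark matches on either strand to GGAAA (the core bound by NFAT factors) or TGANTCA (the AP-1 element), where N is any base and matches may overlap.
Havcr2, chr11:46454681-46454930, plus strand: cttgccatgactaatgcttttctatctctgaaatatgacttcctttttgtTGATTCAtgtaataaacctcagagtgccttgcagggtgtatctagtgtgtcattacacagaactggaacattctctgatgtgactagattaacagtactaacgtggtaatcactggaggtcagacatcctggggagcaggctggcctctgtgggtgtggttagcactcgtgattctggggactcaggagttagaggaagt
Tigit, chr16:43664185-43664434, minus strand: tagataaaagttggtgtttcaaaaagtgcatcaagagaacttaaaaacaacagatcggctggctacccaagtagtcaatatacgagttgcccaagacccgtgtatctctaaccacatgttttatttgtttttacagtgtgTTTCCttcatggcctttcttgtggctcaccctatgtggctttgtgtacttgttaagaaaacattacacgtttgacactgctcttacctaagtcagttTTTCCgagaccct
Pdcd1, chr1:94052554-94052803, minus strand: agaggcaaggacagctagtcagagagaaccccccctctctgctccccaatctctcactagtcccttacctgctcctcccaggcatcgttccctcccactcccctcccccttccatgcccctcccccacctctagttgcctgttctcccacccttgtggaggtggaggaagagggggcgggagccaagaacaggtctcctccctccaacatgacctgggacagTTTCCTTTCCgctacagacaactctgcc
Cd200, chr16:45409054-45409303, minus strand: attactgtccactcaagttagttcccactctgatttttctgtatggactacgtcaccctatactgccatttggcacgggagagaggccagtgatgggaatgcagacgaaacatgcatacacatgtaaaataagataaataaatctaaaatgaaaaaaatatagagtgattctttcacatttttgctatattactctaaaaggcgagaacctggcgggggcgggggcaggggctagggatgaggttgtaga
The Havcr2 window held an AP-1 match 200 bases before the start, and no other member window held one. Tigit had GGAAA matches on the reverse strand at 110 and 13 bases before the start, and Pdcd1 had a pair 28 and 23 bases before it. The Cd200 window held neither. Of all 32851 RefSeq windows of this length, 55.6% held GGAAA and 6.75% held TGANTCA. Over 11 windows of the 9 members with an entry, 5 held GGAAA. The same windows were searched for GTAAACA (FOXO), GGTGTGA (T-box) and TGCTGAC (MAF half-site), which occur in 3.17%, 3.33% and 3.81% of all windows, and among the member windows 1 of Cd160 held the T-box letters and 0 held the FOXO or MAF letters. Lag3 was not in the promoter table. A match is a description of letters, not a bound site.

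Ctla4 (chr1:60887000-60915832, GRCm38, plus strand) encodes the receptor that competes with CD28 for CD80 and CD86. Its TMM CPM was 96.0 in the combination, 93.7 with rapamycin, 107 with metformin, 173 in MEP1+CMC, 101 in No treatment and 3.07 in the naive library. MEP1+CMC stood alone above 4 transferred libraries that lay close together, and the naive library had almost none. The combination and rapamycin libraries were not separated by counting error. The ribosomal pseudogene Rpl18-ps1 lies within the outer bounds of Ctla4 on the same strand and had its own 1418 to 3240 counts, so how reads were divided there is uncertain.

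Pdcd1 (chr1:94038305-94052553, minus strand) encodes PD-1, the receptor for PD-L1 and PD-L2. It had 166 TMM CPM in the combination, 108 with rapamycin, 183 with metformin, 274 in MEP1+CMC, 106 in No treatment and 17.6 in the naive library. The rapamycin and No treatment libraries were not separated, and the other transferred libraries lay above them.

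Tigit (chr16:43648861-43664184, minus strand) binds the poliovirus receptor CD155 and opposes the activating receptor CD226. Its TMM CPM was 62.9 in the combination, 27.1 with rapamycin, 70.8 with metformin, 214 in MEP1+CMC, 104 in No treatment and 1.51 in the naive library. No neighbours in this order overlapped within counting error, and the highest transferred library had 7.90 times the lowest.

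Havcr2 (chr11:46454935-46481255, plus strand) encodes TIM-3, a receptor of interferon-gamma producing T cells that is also carried by macrophages and dendritic cells. Havcr2 had 4.23 TMM CPM in the combination, 0.728 with rapamycin, 7.00 with metformin, 14.9 in MEP1+CMC, 8.08 in No treatment and 0.161 in the naive library. These rest on 236 counts in the combination, 27 with rapamycin, 353 with metformin, 874 in MEP1+CMC, 465 in No treatment and 3 in the naive library. Its range over the transferred libraries, 20.5-fold, exceeded that of every other member, and the order of libraries was the one seen for Tigit.

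Lag3 (chr6:124904361-124911705, minus strand) encodes a CD4-related receptor for MHC class II. Its TMM CPM was 6.33 in the combination, 3.64 with rapamycin, 6.98 with metformin, 24.3 in MEP1+CMC, 4.76 in No treatment and 1.08 in the naive library. MEP1+CMC had 1426 Lag3 counts and no other library more than 353. The combination and metformin libraries were not separated.

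Btla (chr16:45224315-45252895, plus strand) and Cd160 (chr3:96798763-96829351, minus strand) both bind HVEM, the product of Tnfrsf14. Btla had 141 TMM CPM in the combination, 112 with rapamycin, 132 with metformin, 115 in MEP1+CMC, 99.7 in No treatment and 98.4 in the naive library. It was thus near one level in all 6 libraries, and the No treatment and naive libraries were not separated. Cd160 had 34.9 TMM CPM in the combination, 17.9 with rapamycin, 31.7 with metformin, 50.1 in MEP1+CMC, 25.4 in No treatment and 7.86 in the naive library. Reads of Cd160 could be shared with Pdzk1, which overlaps it on the other strand and had 20 counts at most.

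Cd200 (chr16:45382135-45409053, minus strand) encodes a ligand whose receptor on myeloid cells is inhibitory. Its level was 148 TMM CPM in the combination, 110 with rapamycin, 121 with metformin, 118 in MEP1+CMC, 128 in No treatment and 31.7 in the naive library. Its transferred libraries spanned 1.34-fold, the narrowest range of the 10 genes, with Btla next at 1.41-fold.

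Entpd1 (chr19:40612366-40741602, plus strand) had 30.8 TMM CPM in the combination, 14.5 with rapamycin, 25.8 with metformin, 65.3 in MEP1+CMC, 31.9 in No treatment and 1.67 in the naive library. Like most of the receptors, it was highest in MEP1+CMC and, among the transferred libraries, lowest with rapamycin. Nt5e (chr9:88327197-88372092, plus strand) had 137 TMM CPM in the combination, 101 with rapamycin, 137 with metformin, 99.7 in MEP1+CMC, 71.9 in No treatment and 9.37 in the naive library. The 2 ectoenzymes thus differed in order. Nt5e was highest in both metformin libraries, which were not separated from each other, and its MEP1+CMC and rapamycin libraries were not separated either.

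**Figure D1:**
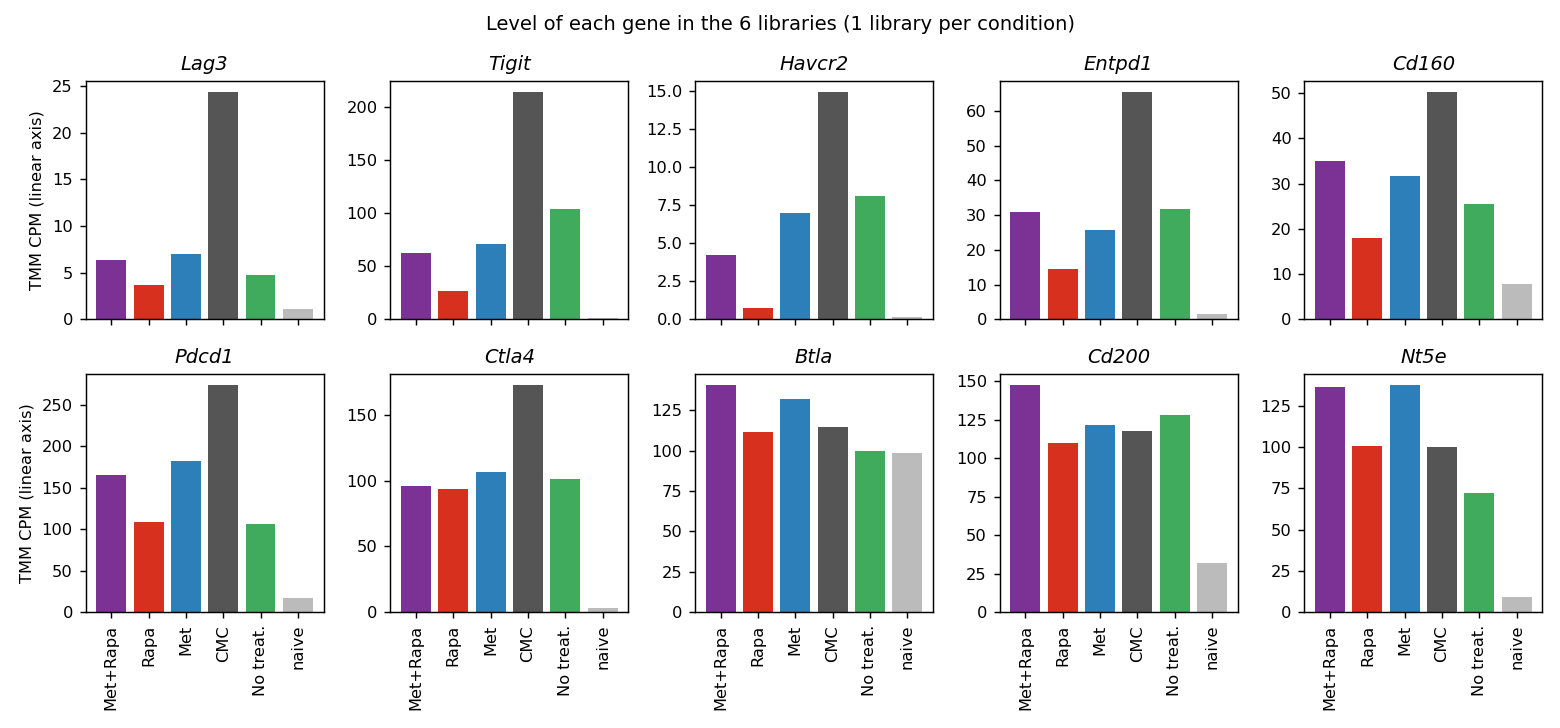
TMM CPM (linear axis from 0, a scale of its own for each gene) of the 10 genes in the 6 libraries, 1 bar per library with no replicate. Tigit, Havcr2, Lag3, Entpd1, Cd160, Pdcd1 and Ctla4 have their tallest bar in MEP1+CMC, and Btla alone has a No treatment bar (99.7) close to the naive one (98.4).

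Per length, the order of the members changed between conditions. On TMM RPKM, which is TMM CPM per kilobase of exon, Pdcd1 was the most abundant in the combination (85.8), with rapamycin (56.1) and with metformin (94.6), whereas Tigit led in MEP1+CMC (222) and in No treatment (108) and Btla in the naive library (30.2). With rapamycin Tigit (28.1 TMM RPKM) was the fifth, below Ctla4, Btla and Cd200. Havcr2 was the lowest in all libraries except No treatment, where Lag3 (2.26 TMM RPKM) lay under Havcr2 (2.97).

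The first comparison sets the transferred, primed and challenged cells against the naive library, and 4 of the 5 transferred libraries also had MEP1 with vehicle or inhibitor. The naive library had 15.41% of its counts at loci resembling ribosomal RNA, against 1.0% to 3.13% in the transferred ones. It had 18888 genes with counts, against 26466 to 30319. The part of this in the ratios over naive was not tested. Ctla4, Pdcd1, Nt5e and Cd200 rose in the 5 transferred libraries over the naive library by edgeR's quasi-likelihood test with Benjamini-Hochberg adjustment over all genes. The log2 fold change was 5.22 for Ctla4 (SE 0.56, adjusted p = 0.00101), 3.54 for Nt5e (SE 0.47, adjusted p = 0.00303), 1.98 for Cd200 (SE 0.27, adjusted p = 0.00344) and 3.25 for Pdcd1 (SE 0.65, adjusted p = 0.0223), and each was higher in 5 of 5 transferred libraries. These are 4 of 10 members, where 4.19% of all genes rose and 9.81% were called in either direction. The median log2 fold change was 3.40 over the members and 0.06 over all genes.

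The other 6 members did not pass this test. Tigit had a log2 fold change of 5.99 (SE 1.90, adjusted p = 0.118), Havcr2 5.45 (SE 2.98, adjusted p = 0.283), Entpd1 4.34 (SE 1.24, adjusted p = 0.0804), Lag3 3.12 (SE 1.95, adjusted p = 0.337) and Cd160 2.03 (SE 0.60, adjusted p = 0.0687). Each of these 5 was also above the naive library in 5 of 5 transferred libraries. Tigit, Havcr2, Entpd1 and Lag3 were under 2 CPM in the naive library. They passed the filter only through transferred libraries, which favours higher values there. Btla had 0.28 (SE 0.25, adjusted p = 0.464). The spread in this test holds the treatment differences between the transferred libraries. The Pdcd1 call was lost without the metformin library (adjusted p = 0.0558) and without the combination library (adjusted p = 0.0509), which left 3 members called in each case. With MEP1+CMC or the rapamycin library left out, Tigit, Cd160 and Entpd1 were called too. DESeq2's Wald test called all members but Btla. The number of all genes called also changed with each of these choices, as given at the end. It was larger by the Wald test and without No treatment.

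**Figure D2:**
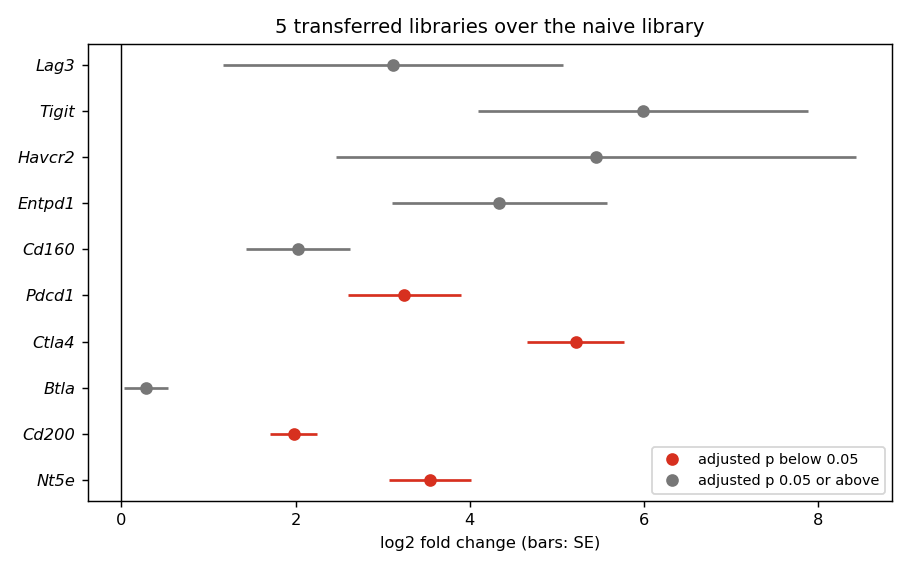
Log2 fold change of each gene in the 5 transferred libraries over the naive library (x axis), with the standard error as a bar, from edgeR's quasi-likelihood test. Red marks an adjusted p below 0.05. Ctla4, Pdcd1, Cd200 and Nt5e are red, and Tigit (5.99), Havcr2 (5.45) and Lag3 (3.12) have long bars.

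In the single pair of No treatment over naive, 9 of 10 members passed the size rule and were higher, where 16.4% of all genes did so. For Tigit, Havcr2, Entpd1 and Lag3, which were under 2 CPM in the naive library, the filter itself favours that direction. The log2 ratio was 6.11 for Tigit (interval 5.57 to 6.70), 5.04 for Ctla4 (4.67 to 5.44) and 4.26 for Entpd1 (3.75 to 4.82). It was 5.64 for Havcr2, with a wide interval of 4.09 to 7.93 because the naive library had 3 counts. Nt5e (2.94), Pdcd1 (2.60), Lag3 (2.14), Cd200 (2.02) and Cd160 (1.69) followed. Btla stood at 0.02 (-0.06 to 0.10). Library totals in place of TMM moved the median of all genes in this pair to 0.50 from 0.08, so ratios over naive depend on the scaling by about that much. Macrophage, monocyte and dendritic-cell markers moved with this pair, all 10 tested ones being higher in No treatment. All 4 tested NK-cell markers were higher too, with a sum of 6 such genes of 119 TMM CPM in No treatment and 5.44 in the naive library, where Ncr1, Klrb1c, Klre1 and Klra8 were at 0. This sum need not follow NK cells. It was 42.0 in MEP1+CMC, where by the size rule Tyrobp alone of the tested markers was lower than in No treatment and Klre1 was higher. All 6 tested B-cell markers were lower, with a sum of 8 of 21.5 TMM CPM in No treatment and 113 in the naive library. The part of these cells in the member ratios was not tested.

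Genes around the members were read from lists drawn up for this purpose. Of 9 tested ligands and partners, 2 rose in the transferred libraries over naive, Pdcd1lg2 (2.77, adjusted p = 0.011) and Cd274 (1.05, adjusted p = 0.0374), which encode PD-L2 and PD-L1. Of 12 costimulatory receptors and ligands 6 rose, among them Tnfrsf4, which encodes OX40 (3.19, adjusted p = 0.000427), and Icos (2.11, adjusted p = 0.0103). In the adenosine pathway 2 of 16 rose and 1 fell. Cd38, an ectoenzyme that consumes NAD, rose by 3.84 (adjusted p = 0.0452), the ATP-gated channel gene P2rx7 rose by 1.85 (adjusted p = 0.0242), and Ada, whose product adenosine deaminase removes adenosine, fell by 1.75 (adjusted p = 0.0295). All p-values here are from the same edgeR quasi-likelihood fit. Of 10 further inhibitory receptors 0 were called by it, of 16 intracellular partners 2 rose and 1 fell, and of 23 regulators 7 rose and 1 fell. Adora2a, the adenosine receptor gene, was read at 57.8 TMM CPM in the combination, 36.7 with rapamycin, 53.4 with metformin, 64.2 in MEP1+CMC, 64.8 in No treatment and 76.4 in the naive library, with no pair used here past the size rule.

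MEP1+CMC over No treatment sets the extra antigen, given with vehicle injections and no inhibitor, against neither. Lag3, Pdcd1, Tigit and Entpd1 passed the size rule and were higher in MEP1+CMC, which is 4 of 10 members where 7.76% of all genes were higher. The log2 ratio was 2.35 for Lag3 (2.17 to 2.54), 1.36 for Pdcd1 (1.32 to 1.41), 1.04 for Tigit (1.00 to 1.08) and 1.03 for Entpd1 (0.95 to 1.11). Lag3 lay above 98.9% of all genes in this ratio and Pdcd1 above 94.9%. Tigit and Entpd1 lay just inside the 2-fold limit and Cd160 (0.98) and Havcr2 (0.88) just outside it, and Cd160 passed with library totals (1.09), DESeq2 size factors and TMM on filtered genes. Ctla4 stood at 0.77, Nt5e at 0.47, Btla at 0.20 and Cd200 at -0.12. The member median was 0.93 and that of all genes -0.04.

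This pair also differs in sex-linked transcripts, with Xist at 262 TMM CPM in MEP1+CMC and 24.2 in No treatment, and Ddx3y at 0.307 in MEP1+CMC and 35.9 in No treatment. The treatment, the vehicle injections and this difference cannot be told apart. All 10 tested macrophage, monocyte and dendritic-cell markers were lower in MEP1+CMC than in No treatment, and of 4 NK-cell markers Klre1 was higher and Tyrobp lower. Their part in the member ratios was not tested. Of 23 regulators, transcription factors and related genes known to act on coinhibitory receptors, 5 were higher and 1 lower in MEP1+CMC. Foxp3 (2.71) and Nr4a2 (2.32) had the largest ratios, and Nr4a1 was lower (-1.02). Tnfrsf9, which encodes 4-1BB, was the 1 costimulatory gene of 12 that was higher (1.72). Of 9 ligands and partners Cd86 (-1.44) and Lgals3 (-1.34), both also myeloid genes, were lower, and of 16 adenosine pathway genes 0 passed the size rule.

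When all 4 MEP1 libraries were set against No treatment, 0 of 10 members were called by edgeR's quasi-likelihood test, where 1.9% of all genes were. Nt5e, Pdcd1 and Btla were above No treatment in 4 of 4 MEP1 libraries, with log2 fold changes of 0.72, 0.78 and 0.32. Pdcd1 with rapamycin was near equality (0.03). Among the regulators Foxp3 (3.23, adjusted p = 0.0246) and Ikzf2 (1.30, adjusted p = 0.045) rose in this edgeR fit.

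MEP1+Rapamycin over MEP1+CMC gave the lowest member median of the 11 pairs compared, -1.41. Havcr2, Tigit, Lag3, Entpd1, Cd160 and Pdcd1 passed the size rule and were lower with rapamycin, which is 6 of 10 members where 5.84% of all genes were lower. Havcr2 was under 2 CPM with rapamycin and passed the filter only through other libraries, which favours that direction. The log2 ratio was -4.36 for Havcr2 (-4.97 to -3.80), -2.98 for Tigit (-3.08 to -2.89), -2.74 for Lag3 (-3.01 to -2.48) and -2.18 for Entpd1 (-2.31 to -2.05). Only 0.358% of all genes lay below Havcr2 in this ratio and 0.943% below Tigit. Cd160 (-1.49) and Pdcd1 (-1.34) were lower by less, and Ctla4 (-0.88) lay under the 2-fold limit. Cd200 (-0.10), Btla (-0.04) and Nt5e (0.01) were near equality. Cd200 and Btla turned sign with library totals (0.06 and 0.12), and also with DESeq2 size factors and TMM on filtered genes. The median of all genes was -0.13. NK-cell markers moved with this pair, since Klrb1c, Klre1 and Klrk1 were lower with rapamycin, 3 of 4 tested, although the sum of 6 such genes was 39.5 TMM CPM with rapamycin and 42.0 in MEP1+CMC. Several of the receptors are known from NK cells too, and the part of these cells in the ratios was not tested.

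Metformin was read the same way. In MEP1+Metformin over MEP1+CMC, 4 of 10 members passed the size rule and were lower, where 2.98% of all genes were lower. They were Lag3 (-1.80, interval -1.97 to -1.63), Tigit (-1.59, -1.65 to -1.54), Entpd1 (-1.34, -1.43 to -1.25) and Havcr2 (-1.09, -1.27 to -0.91). Ctla4 (-0.69), Cd160 (-0.66) and Pdcd1 (-0.58) did not reach 2-fold. Btla (0.20) and Nt5e (0.46) were above equality and Cd200 (0.04) on it. With library totals in place of TMM, Havcr2 no longer passed. B-cell markers moved with this pair, since 4 of 6 tested were lower with metformin, and the sum of 8 was 13.7 TMM CPM with metformin and 26.3 in MEP1+CMC. Of 4 plasma-cell markers Jchain and Mzb1 were lower, and of 4 NK-cell markers Klre1 was lower. Their part in the member ratios was not tested.

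In the combination over MEP1+CMC, the size rule was again passed by 4 of 10 members that were lower, Lag3 (-1.94), Havcr2 (-1.82), Tigit (-1.76) and Entpd1 (-1.08), where 3.69% of all genes were lower. Entpd1 did not pass with library totals. Ctla4 (-0.85), Pdcd1 (-0.72) and Cd160 (-0.52) were under 2-fold, and Nt5e (0.45), Cd200 (0.32) and Btla (0.29) were above equality. These 3 comparisons share the MEP1+CMC library, so a high value in that single library enters each of them. Its sex-linked transcripts also differ from those of the inhibitor libraries, as given above, and the myeloid marker sum was 278 to 342 TMM CPM in the inhibitor libraries and 533 in MEP1+CMC. Of the 10 tested myeloid markers, Lyz2 alone was lower by the size rule in all 3 comparisons. Cd14 was higher by that rule with rapamycin and with metformin, and Marco was higher with metformin. The median log2 ratio of these markers was -0.03 in the combination, 0.05 with rapamycin and -0.26 with metformin. In the combination over MEP1+CMC all 6 tested B-cell markers were higher, and of 4 NK-cell markers Klrb1c and Klre1 were lower. Their part in the member ratios was not tested.

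**Figure D3:**
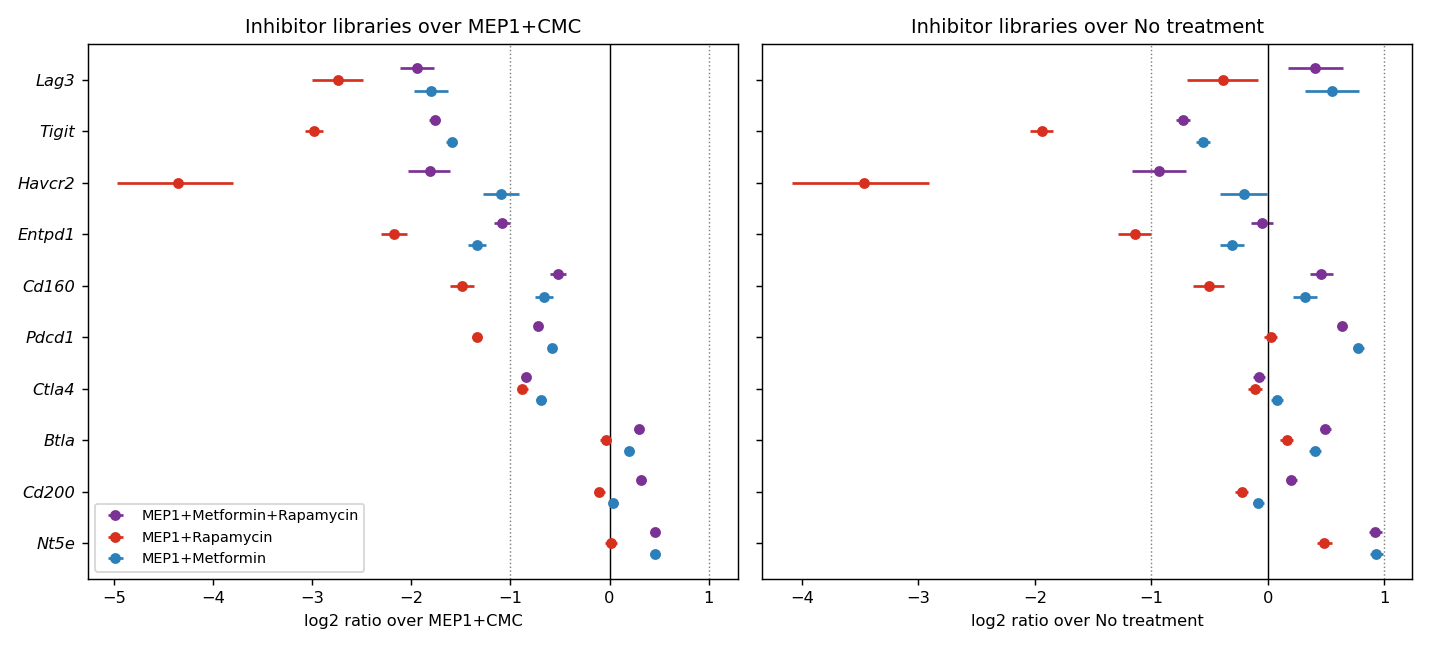
Log2 ratio (x axis) of each gene in the 3 inhibitor libraries over MEP1+CMC (left) and over No treatment (right), with 95% counting intervals and dotted lines at 2-fold. Over MEP1+CMC the points of Lag3, Tigit, Havcr2 and Entpd1 lie left of -1 for all 3 inhibitors, and over No treatment only rapamycin points of Tigit, Havcr2 and Entpd1 do so.

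Against No treatment, a library that does not share the MEP1+CMC value, fewer members differed. MEP1+Rapamycin was lower by the size rule for Havcr2 (-3.47, interval -4.09 to -2.91), Tigit (-1.94, -2.04 to -1.85) and Entpd1 (-1.14), which is 3 of 10 members where 7.28% of all genes were lower. For Havcr2, which was under 2 CPM with rapamycin, the filter itself favours that direction. The Entpd1 ratio did not pass with library totals (-0.87), DESeq2 size factors (-0.97) or TMM on filtered genes (-0.93). Lag3 (-0.39), Pdcd1 (0.03), Ctla4 (-0.11), Cd160 (-0.51), Cd200 (-0.22), Btla (0.16) and Nt5e (0.49) did not pass. MEP1+Metformin passed for 0 of 10 members, where 14.1% of all genes passed in either direction, and the combination for 0 of 10, where 13.4% did. Nt5e was the member nearest to 2-fold higher, at 0.93 with metformin and 0.93 in the combination, and Havcr2 the nearest to 2-fold lower, at -0.93 in the combination. The other ratios over No treatment ran from -0.55 to 0.78 with metformin and from -0.72 to 0.64 in the combination. With library totals Nt5e passed with metformin (1.19) and in the combination (1.15), and Pdcd1 passed with metformin (1.04). Nt5e also passed with metformin under TMM on filtered genes (1.02). Myeloid markers were lower in each inhibitor library than in No treatment, all 10 of 10 tested, all 4 tested NK-cell markers were lower with rapamycin, and all 6 tested B-cell markers were higher in the combination. Their part in the member ratios was not tested.

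The inhibitor libraries can be set against each other without MEP1+CMC, and all 3 had Y-linked transcripts and almost no Xist. MEP1+Rapamycin over MEP1+Metformin had all 10 members below equality, and 2 passed the size rule, Havcr2 (-3.26, -3.89 to -2.70) and Tigit (-1.39, -1.49 to -1.29), where 4.04% of all genes were lower. Lag3 (-0.94), Entpd1 (-0.83), Cd160 (-0.82) and Pdcd1 (-0.75) followed, and the medians were -0.79 for the members and -0.11 for all genes. Because Havcr2 was under 2 CPM with rapamycin, the filter favours a lower ratio for it in this pair. The combination over MEP1+Metformin passed for 0 of 10 members, where 2.98% of all genes passed in either direction. Havcr2 had the lowest ratio there (-0.73, -0.97 to -0.48), and the others ran from -0.17 to 0.28. Of the 4 NK-cell markers tested, Klrb1c, Klre1 and Klrk1 were lower with rapamycin than with metformin. In the combination over metformin all 6 tested B-cell markers were higher and Klrb1c was lower. Their part in the member ratios was not tested.

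Adding metformin to rapamycin went with higher, not lower, values. The combination over MEP1+Rapamycin had all 10 members above equality, except that Ctla4 turned sign with DESeq2 size factors (-0.10) and with TMM on filtered genes (-0.12). The median was 0.71 over the members and 0.13 over all genes, which was -0.0086 with DESeq2 size factors. Havcr2 (2.54, 1.96 to 3.17), Tigit (1.22, 1.12 to 1.32) and Entpd1 (1.09, 0.95 to 1.23) passed the size rule, where 3.33% of all genes were higher. Because Havcr2 was under 2 CPM with rapamycin alone, the filter favours a higher ratio for it in this pair. Without rapamycin the metformin ratio was -1.09 for Havcr2, -1.59 for Tigit and -1.34 for Entpd1. These 2 metformin ratios share no library. Cd160 (0.97), Lag3 (0.80), Pdcd1 (0.61), Nt5e (0.44), Cd200 (0.43), Btla (0.33) and Ctla4 (0.03) did not pass. B-cell markers moved with this pair, since all 6 tested were higher in the combination and the sum of 8 was 74.2 TMM CPM in the combination and 21.4 with rapamycin. Their part in the member ratios was not tested. Entpd1 is carried by B cells too, and its ratio did not pass with DESeq2 size factors (0.95) or TMM on filtered genes (0.94).

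The departure from additivity is the log2 value of the combination minus those of metformin and of rapamycin, plus that of MEP1+CMC, and it uses 4 libraries with no replicate. It was 3.63 for Havcr2 (counting interval 3.03 to 4.23), 2.81 for Tigit (2.70 to 2.93), 2.60 for Lag3 (2.27 to 2.93), 2.43 for Entpd1 (2.27 to 2.60) and 1.63 for Cd160 (1.47 to 1.78). The lower values seen with each inhibitor alone over MEP1+CMC thus did not add up in the combination for these genes. The MEP1+CMC library enters each departure with a plus sign, so a high value in that single library raises all of them. The single rapamycin and metformin libraries enter with a minus sign, so a low value in either raises them too. Havcr2 rested on 27 counts with rapamycin. MEP1+CMC also differs from the inhibitor libraries in sex-linked transcripts, and the part of any of these in the departures was not tested. The departure is given for the members only. Pdcd1 (1.20, 1.13 to 1.26), Ctla4 (0.73), Cd200 (0.39) and Btla (0.13) departed less. Nt5e departed by -0.02 (-0.10 to 0.05), with a metformin ratio of 0.44 with rapamycin and 0.46 without it. These departures hold for TMM scaling, and the small ones depend on it. Over all settings the Nt5e ratio ran from 0.28 to 0.44 with rapamycin and from 0.46 to 0.61 without it. That of Btla ran from 0.18 to 0.33 with rapamycin and from 0.20 to 0.35 without it.

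**Figure D4:**
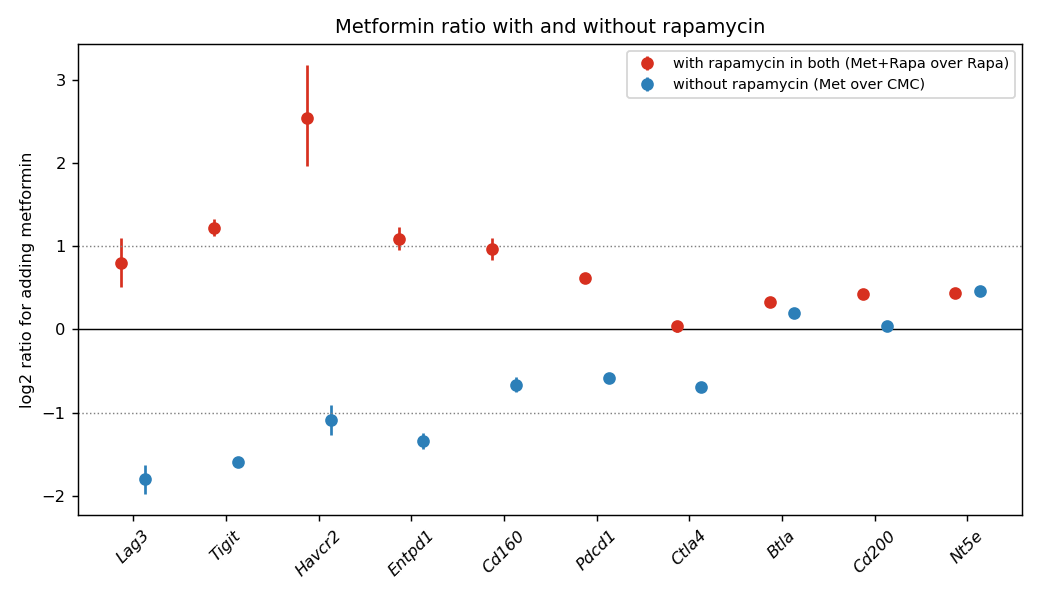
Log2 ratio for adding metformin (y axis) to rapamycin (red, the combination over MEP1+Rapamycin) and without rapamycin (blue, MEP1+Metformin over MEP1+CMC), with 95% counting intervals and dotted lines at 2-fold. Havcr2, Tigit and Entpd1 lie above 1 in red and below -1 in blue, and the Nt5e points are nearly level at 0.44 and 0.46.

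The additive edgeR models of the 4 MEP1 libraries, which take this departure as their error, called 0 of 10 members for rapamycin, where 0.203% of all genes were called, and 0 of 10 for metformin, where 0.164% were. Members at an unadjusted p below 0.05 in the edgeR fit were 2 for rapamycin, Pdcd1 (-0.74, SE 0.28, adjusted p = 0.703) and Ctla4 (-0.52, SE 0.22, adjusted p = 0.74), and 1 for metformin, Nt5e (0.45, SE 0.20, adjusted p = 0.676). Of all 12837 genes tested, 808 were below that unadjusted limit for rapamycin and 923 for metformin. DESeq2's Wald test called Havcr2 for rapamycin (-2.48, adjusted p = 0.024) and 0 members for metformin. Among the listed regulators, Nr4a2 (-1.56, adjusted p = 0.0123) and Nr4a1 (-1.40, adjusted p = 0.00748) fell with rapamycin in the edgeR fit. Of the other inhibitory receptors Klrg1, a marker of differentiated effector cells, rose with it (1.47, adjusted p = 0.0395).

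Neighbouring lists were read by the same size rule. In MEP1+Rapamycin over MEP1+CMC, 7 of 23 regulators were lower and 1 higher. Eomes (-3.42) and Prdm1 (-2.46), which encodes Blimp-1, had the lowest ratios, and both factors are known to act on inhibitory receptors, while Foxp3 was higher (1.15). Of 16 adenosine pathway genes 2 were lower, Cd38 (-1.83) and P2ry10 (-1.30). Of 12 costimulatory genes 1, Tnfrsf9 (-1.47), was lower, of 9 ligands and partners 0 passed, and of 10 other inhibitory receptors 2 were higher and 1 lower. Of 16 intracellular partners 2 were lower, Sh2d1a, which encodes the adaptor SAP (-1.51), and Fyn. With metformin over MEP1+CMC, Eomes (-1.97), Prdm1 (-1.21), Cd38 (-1.02), Tnfrsf9 (-1.31) and Klrg1 (-1.31) were the genes of these lists past the size rule. In the combination over MEP1+Rapamycin, Eomes (1.64) and Prdm1 (1.20) were the 2 of 23 regulators that were higher.

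Ratios between genes within a library do not depend on how libraries are scaled. Per length, Entpd1 over Nt5e was 0.348 in the combination, 0.221 with rapamycin, 0.289 with metformin, 1.01 in MEP1+CMC, 0.684 in No treatment and 0.275 in the naive library. The balance of the 2 ectoenzymes was thus near equal in MEP1+CMC and lay towards Nt5e in every inhibitor library, with counting intervals that did not overlap those of MEP1+CMC or No treatment. Tigit over Cd226, the activating receptor for the same ligand, was 1.76 in the combination, 0.934 with rapamycin, 2.18 with metformin, 7.93 in MEP1+CMC, 2.56 in No treatment and 0.0809 in the naive library. Only the rapamycin interval (0.868 to 1.01) included equality of the pair. Ctla4 over Cd28 was 0.564 in the combination, 0.728 with rapamycin, 0.591 with metformin, 0.826 in MEP1+CMC, 0.607 in No treatment and 0.0482 in the naive library. All 5 transferred libraries lay far above the naive one, whose 57 Ctla4 counts set its interval. Btla over Tnfrsf14, its ligand gene, ran from 4.36 in No treatment to 5.65 in the combination and was 6.99 in the naive library.

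**Figure D5:**
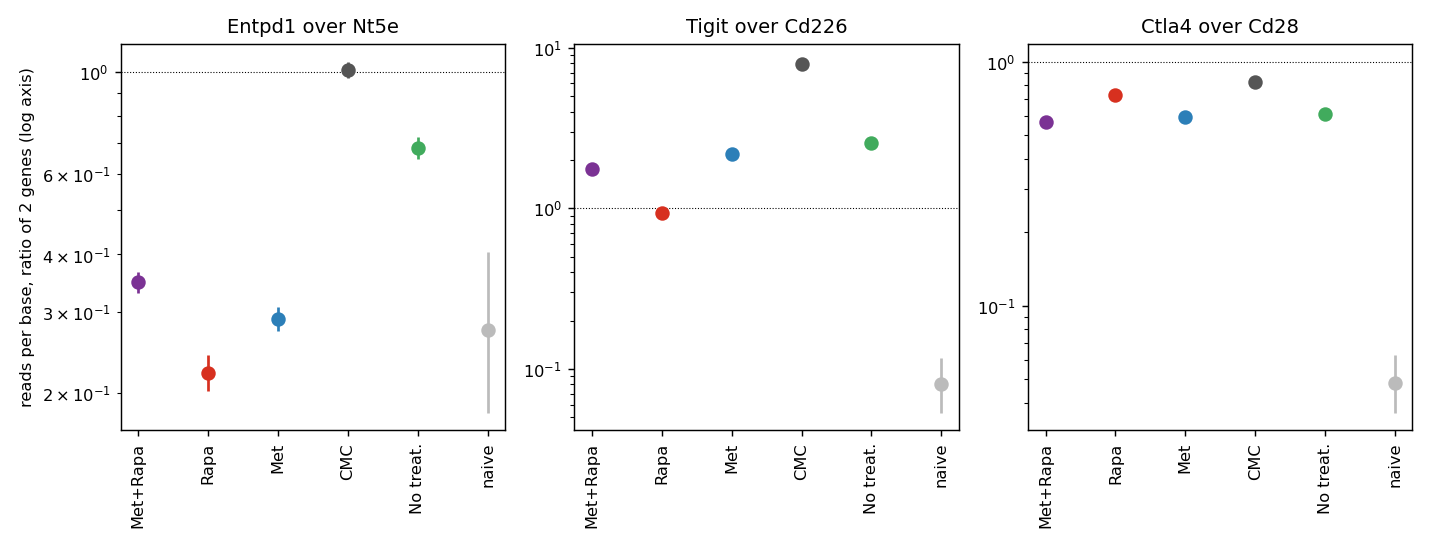
Ratio of reads per base of 2 genes within each library (log axis) for Entpd1 over Nt5e, Tigit over Cd226 and Ctla4 over Cd28, with 95% counting intervals and a dotted line at equality. Entpd1 over Nt5e reaches equality in MEP1+CMC alone (1.01), and Ctla4 over Cd28 stays under 1. Tigit over Cd226 spans 0.934 with rapamycin to 7.93 in MEP1+CMC among the transferred libraries and is 0.0809 in the naive library.

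The genes closest to each member across the 5 transferred libraries were found by the root mean square (RMS) difference of centred log2(TMM CPM + 1) values. Genes with a mean of at least 5 TMM CPM were searched. The added 1 narrows differences between low values, such as those of Havcr2 and Lag3. For Lag3 they were Ccl5 (RMS difference 0.142), Arnt2 (0.151) and 6330403K07Rik (0.199). Tigit lay closest to Car2 (0.214), Coch (0.215) and Ier3 (0.219). Havcr2 lay closest to H2-Q2 (0.188) and Smim3 (0.260), with Tigit itself next (0.281). Genes close to Entpd1 included Kcnk5 (0.125) and Cd38 (0.153). Pdcd1 lay closest to Asap2 (0.0610) and Nt5e to Tia1 (0.0325). The nearest gene was Slc35e4 (0.0599) for Ctla4, Dennd1c (0.0136) for Btla, B4galt4 (0.0524) for Cd160 and L3mbtl3 (0.0195) for Cd200. With 5 libraries many genes share an order, and no test was made of these likenesses.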

How the data were processed

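RNA-seq of 6 mouse libraries, 1 per treatment label, was used. The values the authors deposited are unnormalised read counts per gene, as their whole numbers show. Per the submitters' processing notes, reads were processed with Trimmomatic 0.36, STAR 2.5.2b and featureCounts (Subread 1.5.2) on GRCm38. Strand setting, annotation release and treatment of multiply mapped reads are not given in the sources used here. Symbols came from GENCODE (48970 of 49315 identifiers).

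Counts were scaled by TMM in edgeR 4.0.16 (R 4.3.3), and the filter stated above was applied. Pair ratios carry Clopper-Pearson 95% intervals (scipy 1.17.1), with a floor of 3 counts where a library had 0. Such intervals and floors cover counting error only, and without molecular identifiers a read is not an independent molecule. Models were edgeR quasi-likelihood fits (robust, Benjamini-Hochberg over all tested genes, threshold 0.05) with 4 residual degrees of freedom for the transferred libraries, 3 for the MEP1 libraries and 1 for each inhibitor term. The lone library in a comparison is taken to be as variable as the rest. How many mice each library holds is not stated, so the p-values reflect differences between libraries, which may be technical. Scripts were tested on simulated data. Alternatives were library totals, DESeq2 1.42.0 (size factors and Wald test), no filter, exclusion of loci resembling ribosomal RNA, legacy quasi-likelihood, each library left out and, chosen after seeing the data, TMM on filtered genes. All members are named, and of each other list up to 4 genes with the most extreme ratios past the size rule. Genes called by a model, Adora2a and marker genes were named outside that rule, after their values were seen, and 1 gene near Entpd1 is not reported here. The members and lists were chosen with earlier results of these data known.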

Additional observations from a re-analysis of the deposited data

Results flagged for a closer look

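The metformin ratio had opposite signs without and with rapamycin for 3 genes, past the size rule both times under TMM. Such reversals were counted among the members only, so no share of all genes can be set beside this count. Tigit had a log2 ratio of 1.22 for the combination over MEP1+Rapamycin and of -1.59 for MEP1+Metformin over MEP1+CMC. Havcr2 had 2.54 with rapamycin and -1.09 without it. It was under 2 CPM with rapamycin alone, so the filter favours a higher ratio for it there. Entpd1 had 1.09 with rapamycin and -1.34 without it, and the ratio with rapamycin did not pass the size rule with DESeq2 size factors (0.95) or TMM on filtered genes (0.94). Havcr2 without rapamycin did not pass with library totals (-0.94). With 1 library per condition the difference was not tested against replicate spread. The libraries without rapamycin also differ in sex-linked transcripts, and the part of this in the opposite signs was not tested.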

How the results depend on the processing

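Of 110 member ratios, 35 passed the size rule, 102 kept their side of it under all 5 other settings, and no passing ratio changed sign. Of all genes, 2.98% to 24.0% passed in either direction, depending on the pair. The 11 pairs reuse 6 libraries, so these ratios are not independent of each other. With library totals, 2 members were higher in MEP1+Metformin over No treatment and 1 in the combination over No treatment, and with TMM on filtered genes 1 was higher with metformin, against 0 under TMM. In the transferred libraries over naive, 4 members rose, against 7 with library totals, 9 with DESeq2's Wald test and 3 to 7 with 1 library left out. For rapamycin 0 members fell in edgeR and 1 by the Wald test.

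Of 370 member values from models, 13 changed sign, none of them past the threshold, and the cause was not tested. For the MEP1 libraries over No treatment, Tigit stood at 0.023 and Cd200 at 0.17 with library totals, and Cd200 at 0.034 with DESeq2 size factors and 0.051 with TMM on filtered genes. With 1 MEP1 library left out, the same fold changes ran from -0.95 (without MEP1+CMC) to 0.16 (without rapamycin) for Tigit, where it was 0.00062 without the combination, from -0.99 to 0.11 for Havcr2 and from -0.43 to 0.35 for Entpd1 without the same 2 libraries, from -0.031 to 0.31 for Ctla4 and from -0.14 (without the combination) to 0.0095 (without rapamycin) for Cd200. For metformin, Havcr2 stood at -0.090 with no filter and Pdcd1 at -0.051 with DESeq2 size factors and -0.049 with TMM on filtered genes.

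The all-gene count in the transferred libraries over naive was 1259, against 2672 with library totals, 3393 by the Wald test, 2287 by legacy quasi-likelihood and 693 to 2998 with 1 library left out. For the MEP1 libraries over No treatment it was 244, against 974 by the Wald test, 395 with no filter, 136 with library totals and 131 without metformin. For metformin it was 21, against 12 with library totals, 12 with TMM on filtered genes and 0 with no filter, and for rapamycin 26, against 59 by the Wald test, 41 by legacy quasi-likelihood, 17 with library totals and 0 with no filter. With no filter, the genes past the size rule numbered 4985 against 3078 in No treatment over naive and 5362 against 1474 in MEP1+CMC over No treatment. Over MEP1+CMC they numbered 4116 against 860 for the combination, 7706 against 1410 for rapamycin and 4440 against 723 for metformin. Over No treatment they numbered 5776 against 1718 for the combination, 9246 against 2095 for rapamycin and 6549 against 1814 for metformin. Among the inhibitors they numbered 5912 against 1036 in rapamycin over metformin, 3458 against 382 in the combination over metformin and 6128 against 813 in the combination over rapamycin. No paired analysis was possible because each condition has 1 library. Depth limits Havcr2 most, with 27 counts with rapamycin and 3 in the naive library.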
